A study of Mus musculus with 48 samples.

Results

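The immediate early and heat shock genes were followed in 6 flow-sorted populations of mononuclear phagocytes of the mouse ear. The set was a list of 36 genes, 28 immediate early and related genes and 8 heat shock genes, many of which also respond when a tissue is taken apart into single cells. Each gene was read from the probe sets that carried its symbol alone, and where a gene had several the set with the highest mean over the 48 arrays was used. That gave 35 of the 36 genes, among 15591 genes measured above a low-value filter, and each of the 35 exceeded the filter threshold on all 48 arrays. Hspa1b had no probe set of its own and is described through the set it shares with Hspa1a.

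Epidermal Langerhans cells (sorted as CD11b+MHCII+CD24+), dermal MHCIIlow macrophages, dermal CD11b+ conventional dendritic cells (CD11b DC, sorted as CD24-) and dermal Ly-6Chigh monocyte-derived dendritic cells (moDC) were taken after 5 days of imiquimod, after 11 days of imiquimod and from untreated mice. Dermal MHCIIhi macrophages were taken after 11 days and untreated, and dermal monocytes (Ly-6Chi, MHCIIlow) after 5 days and untreated. Both macrophage populations were sorted as CD64hi. Imiquimod, a Toll-like receptor 7 agonist, was applied daily as a 5% cream, 7 mg per ear side, to mice aged 8 to 11 weeks, in a course given as 14 days. The strain of the mice is not given in the sources used here. Each of the 16 groups held 3 arrays, and no label says that these came from separate mice, so every p-value below measures the spread between these samples, which may be technical. Ears of all groups were digested with dispase, either warm (2 hours, 37 °C) or cold (overnight, 4 °C), and then with collagenase IV for 90 minutes at 37 °C. Which sample received which dispase step is not given, and its part in the values below was not tested.

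Immediate early genes are transcribed within minutes of a stimulus by factors already present in the cell, such as SRF with its ternary complex partners and CREB, and need no new protein synthesis. Their products include the AP-1 proteins of the FOS, JUN and ATF families, the EGR zinc fingers and the NR4A orphan nuclear receptors, together with feedback proteins such as the MAP kinase phosphatases of the DUSP family, the mRNA-destabilising protein ZFP36 and the cytokine signalling inhibitor SOCS3. Heat shock genes encode chaperones that hold or refold proteins and are induced by the factor HSF1 when proteins unfold. In skin phagocytes both programmes answer pattern recognition and cytokines, and enzymatic digestion at body temperature also induces them.

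Promoter sequence was available for 30 of the 36 genes in a RefSeq table of build GRCm38.p6, and the 250 bases before the start of transcription were searched on both strands. The cyclic AMP response element half-site TGACGT, the core of the site that CREB and ATF proteins bind, stood in 7.29% of the 27025 genes with a promoter and in 8 of the 30 genes, namely Fos, Atf3, Maff, Egr2, Nr4a3, Dusp1, Dusp5 and Btg2. The full palindrome TGACGTCA, which holds the half-site on each strand, stood in 1.77% of all genes and in Maff, Dusp1 and Btg2. The CArG box, the element bound by SRF, stood in 1.62% of all genes and in Egr2, Dusp5 and Zfp36. The TATA sequence TATAAA stood in 14.33% of all genes and in Fos, Nr4a2 and Gadd45b. The heat shock element GAANNTTCNNGAA, in which N is any base, stood in 0.51% of all genes and in 1 of the 6 heat shock genes with a promoter, Hspe1. A match is a description of the letters in this window and not evidence of a bound site. The promoters of 4 genes that the results below turn on are printed 5′ to 3′ on the coding strand, with matches to these motifs in capitals.
Fos (chr12:85473640-85473889, plus strand, 1 half-site beginning 66 bases before the start and a TATA sequence 33 bases before it): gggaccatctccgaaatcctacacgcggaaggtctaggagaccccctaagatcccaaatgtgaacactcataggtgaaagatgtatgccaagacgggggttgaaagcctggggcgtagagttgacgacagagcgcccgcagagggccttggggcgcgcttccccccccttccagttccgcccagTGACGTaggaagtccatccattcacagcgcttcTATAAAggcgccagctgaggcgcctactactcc
Nr4a3 (chr4:48045055-48045304, plus strand, 3 half-sites beginning 231, 205 and 147 bases before the start): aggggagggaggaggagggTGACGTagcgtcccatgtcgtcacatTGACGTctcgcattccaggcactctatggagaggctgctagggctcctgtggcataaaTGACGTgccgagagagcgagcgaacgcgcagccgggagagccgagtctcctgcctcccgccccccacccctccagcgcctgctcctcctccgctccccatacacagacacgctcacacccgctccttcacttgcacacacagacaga
Gadd45b (chr10:80929841-80930090, plus strand, a TATA sequence 46 bases before the start): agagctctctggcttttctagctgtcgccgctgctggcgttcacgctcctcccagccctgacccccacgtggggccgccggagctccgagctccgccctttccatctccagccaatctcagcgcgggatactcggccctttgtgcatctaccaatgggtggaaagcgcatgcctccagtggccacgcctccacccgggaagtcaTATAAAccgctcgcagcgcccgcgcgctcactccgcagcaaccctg
Hspe1 (chr1:55087898-55088147, plus strand, a pair of overlapping heat shock elements beginning 89 and 84 bases before the start): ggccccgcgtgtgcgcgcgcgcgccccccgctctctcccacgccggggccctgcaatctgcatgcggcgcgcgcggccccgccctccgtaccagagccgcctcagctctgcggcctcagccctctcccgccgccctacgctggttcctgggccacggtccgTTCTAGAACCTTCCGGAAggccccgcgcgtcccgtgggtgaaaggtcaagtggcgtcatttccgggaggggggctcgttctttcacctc

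All values are log2 expression on the authors' RMA scale, so a difference of 1 is a doubling of signal, and a level is never set against that of another gene. Below, a difference is a log2 difference between the means of 3 arrays, given with its standard error (SE) from a limma model over all 48 arrays, and "rose" or "fell" is used of a gene whose Benjamini-Hochberg adjusted p over all 15591 genes was under 0.05. The median log2 value per array lay between 4.10 and 4.37, and precision is limited by there being 3 arrays a group. The arrays of CD11b DC replicate 2 at day 11 and of untreated monocyte replicate 2 had mean correlations to their groups of 0.945 and 0.932, and are called the arrays that stood apart. The other untreated monocyte arrays were also low, at 0.947 and 0.940, so that whole group was loose. Untreated monocyte replicate 2 also carried more RNA of other cells than the other untreated monocyte arrays: its summed fibroblast markers reached 14.3, against 11.1 and 12.045, and its T cell markers 11.5, against 7.66 to 8.73. The defining markers of each labelled population were present, and Cd207, the langerin gene, averaged 11.2 in untreated Langerhans cells. Sample titles carry a letter that is shared by all untreated dermal samples and by no treated dermal one. In the dermal populations it therefore cannot be told apart from treatment. Untreated and day 5 Langerhans cells share a letter. Day 11 Langerhans cells carry another, so in their comparison with untreated cells the letter cannot be told apart from treatment either. In bulk samples fewer cells of a type and less RNA per cell cannot be told apart.

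The early genes as a group were at their highest in untreated skin in 5 of the 6 populations. Averaged over the 28 early genes, MHCIIlow macrophages measured 9.48 ± 0.07 untreated, 8.79 ± 0.04 at day 5 and 8.81 ± 0.34 at day 11 (SD, n = 3 each, as for all such means). Langerhans cells measured 9.57 ± 0.03 untreated, 9.21 ± 0.15 at day 5 and 8.84 ± 0.27 at day 11. In both populations no treated array reached the lowest untreated one. CD11b DC measured 9.35 ± 0.01, 9.15 ± 0.10 and 8.79 ± 0.25 in the same order, and moDC 9.36 ± 0.05, 9.34 ± 0.13 and 8.97 ± 0.14. MHCIIhi macrophages measured 9.01 ± 0.29 at day 11, against 9.60 ± 0.04 untreated. Monocytes were the exception, with 9.36 ± 0.09 at day 5, against 9.14 ± 0.12 untreated. The mean of the 7 heat shock genes was 8.69 ± 0.05 in Langerhans cells at day 11, against 9.06 ± 0.16 untreated, and 8.79 ± 0.15 in MHCIIhi macrophages at day 11, against 9.18 ± 0.18 untreated. MHCIIlow macrophages measured 9.26 ± 0.16 untreated, 9.12 ± 0.24 at day 5 and 8.88 ± 0.21 at day 11. CD11b DC measured 9.01 ± 0.07, 8.83 ± 0.18 and 8.88 ± 0.25 in the same order, and moDC 8.91 ± 0.25, 8.77 ± 0.31 and 8.59 ± 0.10. Monocytes measured 8.81 ± 0.15 at day 5, against 8.75 ± 0.12 untreated.

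**Figure D1:**
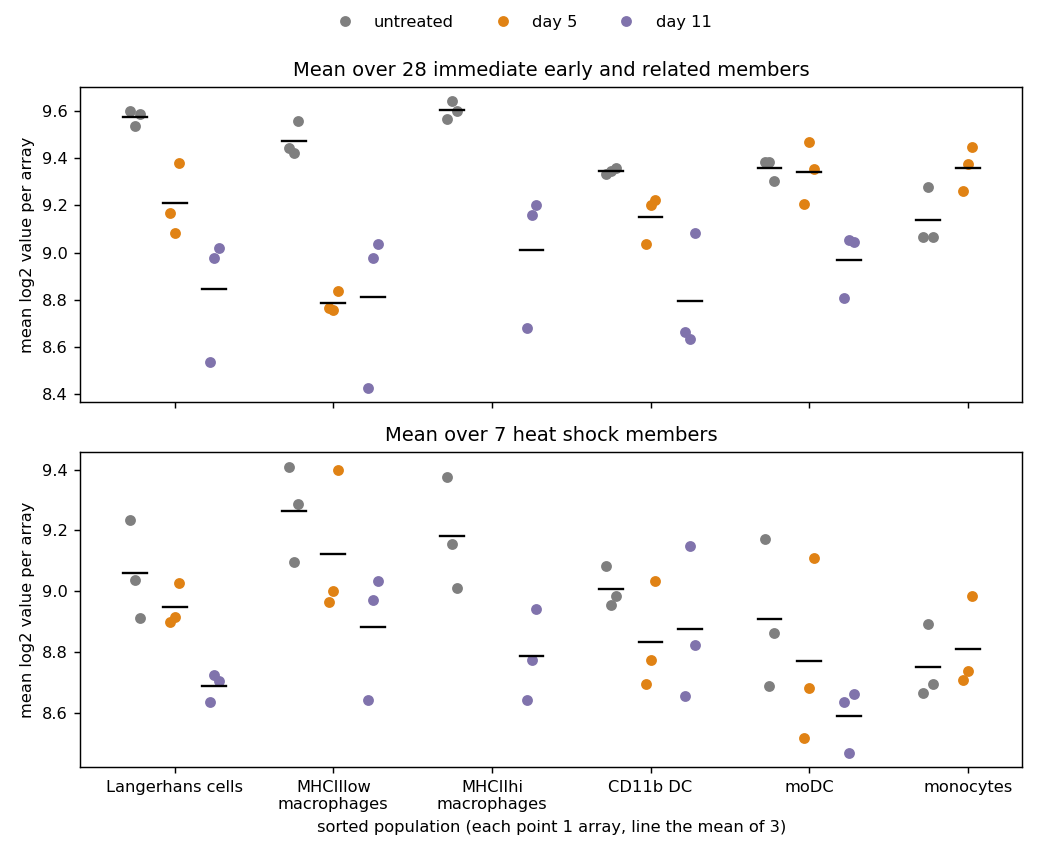
Mean log2 value per array over the 28 early genes (top) and the 7 heat shock genes (bottom) in 6 sorted populations, untreated, at day 5 and at day 11 of imiquimod; each point is 1 array and each line the mean of 3. Early gene means of treated arrays lie below all untreated ones in Langerhans cells, both macrophage populations and CD11b DC, while monocytes at day 5 average 9.36, against 9.14 untreated.

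The counts of called genes had the same shape. After 11 days, 17 of the 35 genes fell and 2 rose in Langerhans cells, where 8.4% of all genes fell and 9.31% rose. In MHCIIhi macrophages 15 fell and 3 rose (7.49% and 7.45% of all genes), and in MHCIIlow macrophages 13 fell and 0 rose (5.39% and 4.33%). In CD11b DC 10 fell and 1 rose (6.79% and 3.55%), and in moDC 8 fell and 1 rose (5.84% and 2.58%). The medians over the 35 genes were -0.62, -0.40, -0.53, -0.32 and -0.29 in that order, beside medians over all genes between -0.02 and 0.03. After 5 days, 14 fell and 2 rose in MHCIIlow macrophages (6.95% and 7.22% of all genes) and 7 fell and 2 rose in Langerhans cells (7.49% and 8.64%). CD11b DC had 2 falls and 0 rises (4.96% and 3.01%), moDC 3 falls and 1 rise (5.61% and 5.68%), and monocytes 4 falls and 9 rises (6.31% and 6.43%). In moDC and CD11b DC at day 5 the members' shares were close to those of all genes. Day 5 and day 11 of a population were compared with the same 3 untreated arrays, so their calls are not independent of each other.

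**Figure D2:**
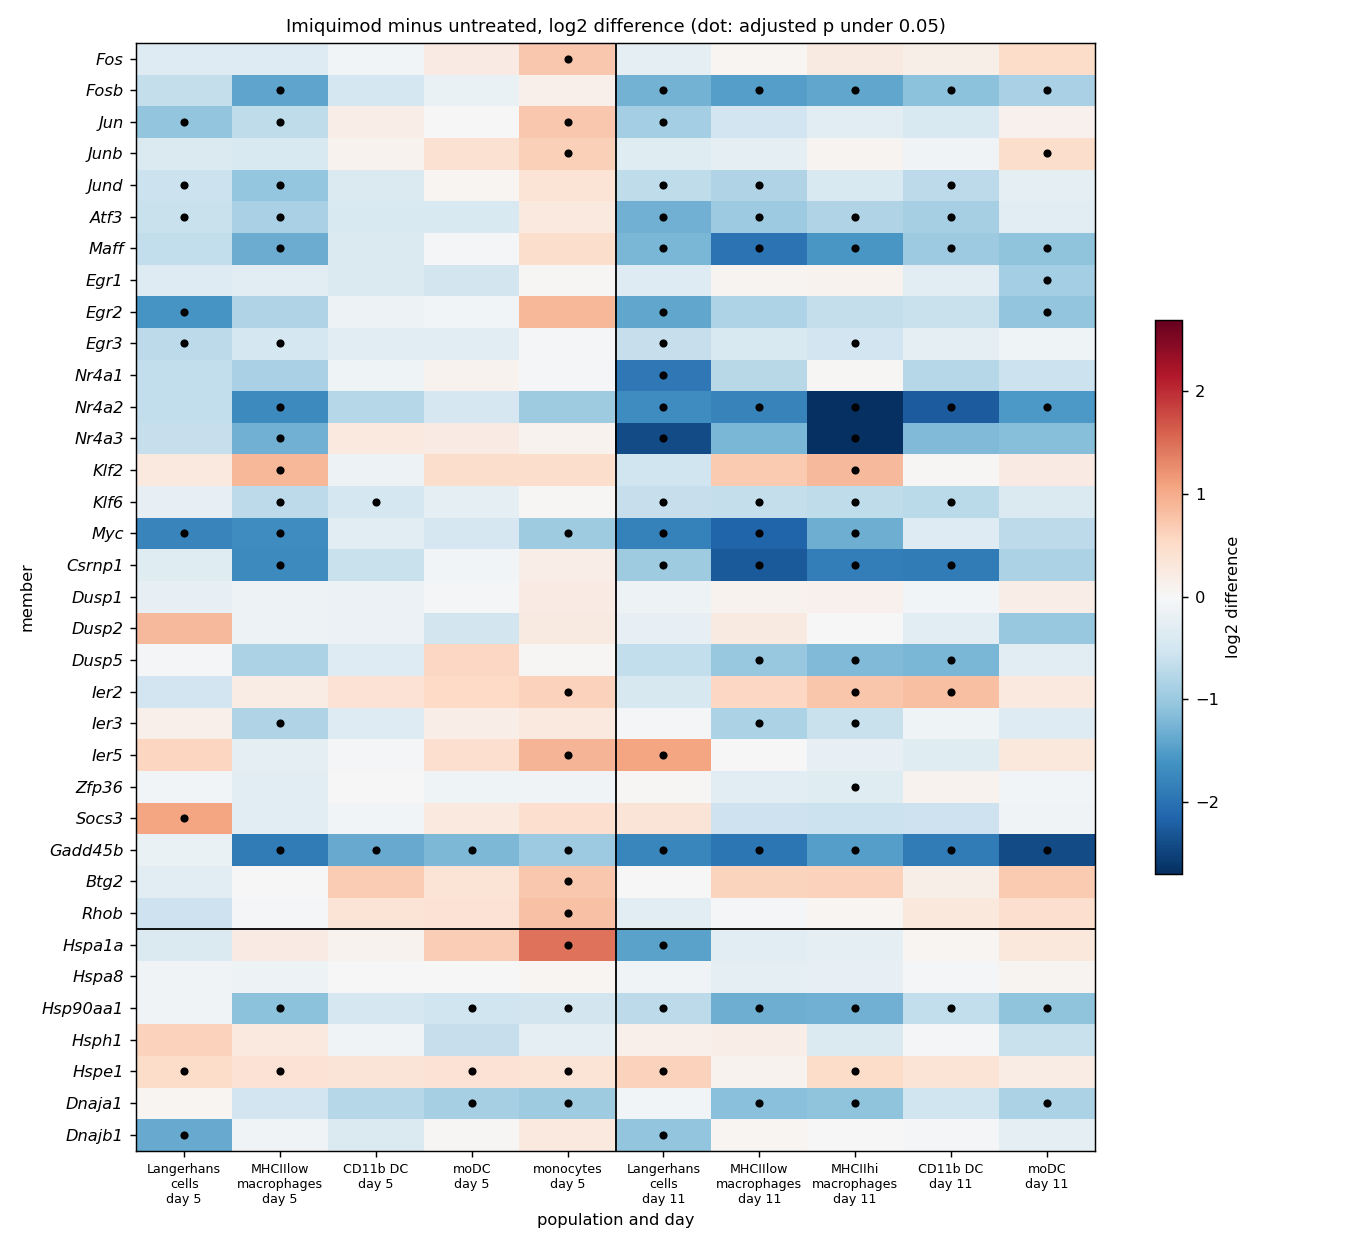
Log2 difference, imiquimod minus untreated, of the 35 measured genes (rows; the horizontal line separates early from heat shock genes) in 10 comparisons (columns; day 5 left of the vertical line, day 11 right of it). Blue is lower and red higher under imiquimod, and a dot marks an adjusted p under 0.05. Gadd45b, Maff, Fosb, Nr4a2 and Hsp90aa1 carry a dot in all 5 day 11 columns.

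In Langerhans cells at day 5 the genes that fell were mainly transcription factors, led by Myc, and the co-chaperone Dnajb1, while the feedback inhibitor Socs3 rose. Myc, which drives growth and proliferation genes, measured 9.55, 9.40 and 9.70 at day 5, against 11.31, 11.33 and 11.35 in untreated cells, a difference of -1.78 ± 0.25 (3.43-fold lower, adjusted p = 1.48e-06). Egr2, an EGR zinc finger, measured 8.33, 7.96 and 7.99, against 9.60, 10.04 and 9.43 (-1.60 ± 0.32, adjusted p = 0.00025). Dnajb1, the HSP40 partner of HSP70, measured 7.27, 6.59 and 7.13, against 8.65, 8.50 and 7.90 (-1.36 ± 0.20, adjusted p = 3.08e-06). Every day 5 array lay below every untreated one for all 3 genes. The AP-1 subunit Jun measured 9.16, 9.10 and 9.51 at day 5, against 10.47, 10.32 and 10.21 untreated (-1.07 ± 0.22, adjusted p = 0.000458). Egr3 had 6.32, 6.24 and 6.51, against 7.24, 6.83 and 7.09 (-0.70 ± 0.16, adjusted p = 0.00154). Atf3, a stress-induced member of the ATF family, had 11.09, 11.11 and 11.43, against 11.87, 11.88 and 11.70 (-0.61 ± 0.20, adjusted p = 0.0328). None of these groups overlapped, but the Atf3 call was lost without any 1 of 4 arrays (untreated replicates 1 and 2, day 5 replicates 2 and 3), at adjusted p between 0.0907 and 0.128. The remaining fall was Jund, at -0.57, which was not called without any 1 of 4 arrays (untreated replicates 1 and 3, day 5 replicates 2 and 3), at adjusted p between 0.0895 and 0.204. Socs3 measured 9.20, 8.89 and 9.24 at day 5, against 8.36, 7.78 and 8.00 untreated, and rose by 1.06 ± 0.22 (adjusted p = 0.000506). Hspe1, the co-chaperonin of the mitochondrial HSP60 ring, measured 10.99, 10.90 and 10.78, against 10.46, 10.23 and 10.51, a rise of 0.49 ± 0.13 (adjusted p = 0.00595), which was lost without untreated replicate 2 (0.40, adjusted p = 0.0603) and after renewed quantile normalisation (0.32, adjusted p = 0.0645). With a fit of the day 5 and untreated Langerhans arrays alone, 14 of the 35 genes were called in place of 9.

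At day 11 the 3 NR4A receptors, of which 0 had been called at day 5 (-0.66 to -0.63), were among the largest falls in Langerhans cells. Nr4a3 measured 8.11, 8.29 and 8.36 at day 11, against 10.50, 10.87 and 10.66 in untreated cells (-2.42 ± 0.42, 5.37-fold lower, adjusted p = 3.46e-05). Nr4a1 measured 7.49, 9.45 and 9.39, against 10.64, 10.78 and 10.73 (-1.94 ± 0.46, adjusted p = 0.00189), and Nr4a2 measured 7.58, 8.11 and 8.32, against 9.67, 9.43 and 9.92 (-1.67 ± 0.44, adjusted p = 0.00491). All day 11 arrays lay below all untreated ones, and day 11 replicate 1 was the lowest for each of the 3, by a wide gap for Nr4a1. Myc had 9.08, 9.85 and 9.56, against 11.31, 11.33 and 11.35 (-1.84 ± 0.25, adjusted p = 9.34e-07). Gadd45b, which acts in growth arrest and stress kinase signalling, had 7.35, 8.21 and 8.25, against 9.55, 9.82 and 9.70 (-1.75 ± 0.29, adjusted p = 2.04e-05). Hspa1a, an inducible HSP70 gene, had 6.12, 6.35 and 7.17, against 8.31, 8.05 and 7.62 (-1.44 ± 0.46, adjusted p = 0.0253). These groups did not overlap either, and the Hspa1a call was lost without untreated replicate 1 or 2 or day 11 replicate 1 or 2, at adjusted p between 0.0723 and 0.11. The other 11 falls lay between -1.41 (Egr2) and -0.62 (Egr3) with Atf3, Fosb, Maff, Dnajb1, Csrnp1, Jun, Hsp90aa1, Jund and Klf6 between them. The Csrnp1 call was lost without any 1 of 5 of the 6 arrays, with -0.63 (adjusted p = 0.272) without day 11 replicate 1, and under 4 other settings at adjusted p between 0.0502 and 0.0677. The Jund call was lost without untreated replicate 1 or day 11 replicate 2 (adjusted p = 0.0811 and 0.092). Ier5, an early gene that in other cells acts with HSF1, rose: it measured 7.76, 7.72 and 7.71 at day 11, against 6.73, 6.83 and 6.43 untreated (1.07 ± 0.23, adjusted p = 0.000831). Hspe1 rose as at day 5, with 10.90, 11.21 and 10.94, against 10.46, 10.23 and 10.51 (0.62 ± 0.13, adjusted p = 0.000485).

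RNA of keratinocytes, among which Langerhans cells lie, moved with these comparisons. The summed level of the 14 measured keratinocyte markers ran from 12.3 to 13.2 at day 5 and from 12.7 to 13.4 at day 11, against 14.4 to 14.6 in untreated Langerhans cells, and 11 and 9 of the 14 fell. In untreated Langerhans cells Krt5 averaged 12.2 and Krt14 11.5, and of the 14 markers only Lor, at 4.09, lay near the median of the arrays. The summed level of 7 neutrophil markers moved the other way, with 11.98 to 12.63 at day 5 and 11.7 to 12.5 at day 11, against 6.47 to 6.73 untreated. It was carried by S100a8 and S100a9, which keratinocytes and other myeloid cells also express when inflamed, while Mpo, Elane and Cxcr2 averaged 3.77, 3.79 and 3.61 at day 5, near background. The remaining measured neutrophil markers are not given here, and the part of neutrophil RNA in this sum was not tested. The 3 measured monocyte markers summed to 8.56 to 9.31 at day 5 and 6.21 to 7.87 at day 11, against 5.41 to 5.52 untreated, and 3 and 2 of them rose. Fibroblast markers summed to 9.61 to 10.7 at day 5, against 8.80 to 9.35 untreated, with 3 of 10 risen. The part of these other cells in the early gene differences was not tested.

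In MHCIIlow macrophages 14 genes fell at day 5, with Gadd45b, Nr4a2, Csrnp1 and Myc the largest falls. Gadd45b measured 8.94, 9.17 and 8.53 at day 5, against 10.93, 10.52 and 10.84 in untreated cells (-1.88 ± 0.29, adjusted p = 1.95e-05). Nr4a2 measured 5.79, 5.24 and 6.80, against 7.69, 7.83 and 7.44 (-1.72 ± 0.44, adjusted p = 0.00588). Csrnp1, a nuclear protein of the early class, measured 8.94, 9.11 and 8.96, against 11.07, 10.27 and 10.80 (-1.71 ± 0.33, adjusted p = 0.000404). The groups stood clear of each other for all 3, and the Nr4a2 call was lost without day 5 replicate 3 (-1.36, adjusted p = 0.0632). Myc had 8.86, 8.77 and 9.01, against 10.38, 10.57 and 10.74 (-1.69 ± 0.25, adjusted p = 1.35e-05). The other 10 falls were Fosb, Maff, Nr4a3, Hsp90aa1, Jund, Atf3, Ier3, Klf6, Jun and Egr3, between -1.42 and -0.47. Nr4a3 was not called without any 1 of 4 arrays (untreated replicates 1 and 2, day 5 replicates 2 and 3), at adjusted p between 0.0532 and 0.15, and Egr3 not without any 1 of 5 (adjusted p between 0.0641 and 0.257). Among the 10, Hsp90aa1, the inducible cytosolic HSP90, stood out for its narrow spread: it measured 10.02, 10.06 and 10.21 at day 5, against 11.24, 11.19 and 11.19 untreated (-1.11 ± 0.16, adjusted p = 4.32e-06). Klf2, a Krüppel-like factor associated with quiescence in T cells and with a restrained inflammatory state in monocytes, had 8.30, 8.68 and 8.52, against 7.03, 7.49 and 8.28, and rose by 0.90 ± 0.25 (adjusted p = 0.0115). The Klf2 call was lost without untreated replicate 1 (0.61, adjusted p = 0.13), without day 5 replicate 3 (0.81, adjusted p = 0.062) and in a fit of these groups alone (adjusted p = 0.0973). Hspe1 had 10.91, 10.77 and 11.09, against 10.82, 10.29 and 10.52 (0.38 ± 0.13, adjusted p = 0.043), with overlapping groups, and its call was lost without any 1 of 4 arrays (untreated replicates 2 and 4, day 5 replicates 2 and 4), at adjusted p between 0.0892 and 0.278.

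After 11 days 13 genes fell in MHCIIlow macrophages, with Csrnp1, Myc, Maff and Gadd45b the largest falls. Csrnp1 measured 7.72, 8.94 and 8.67 at day 11, against 11.07, 10.27 and 10.80 untreated (-2.27 ± 0.33, 4.82-fold lower, adjusted p = 1.1e-05). Myc measured 8.03, 8.40 and 8.78, against 10.38, 10.57 and 10.74 (-2.16 ± 0.25, adjusted p = 2.17e-07). Maff, a small MAF protein, measured 5.40, 7.00 and 7.23, against 8.53, 8.56 and 8.50 (-1.99 ± 0.31, adjusted p = 2.8e-05). Day 11 replicate 1 was the lowest array for each of these genes, and no day 11 array reached an untreated one. Gadd45b had 7.93, 9.44 and 9.04, against 10.93, 10.52 and 10.84 (-1.96 ± 0.29, adjusted p = 1.28e-05). The other 9 falls were Nr4a2, Fosb, Hsp90aa1, Dnaja1, Dusp5, Atf3, Ier3, Jund and Klf6, between -1.80 and -0.64. Without day 11 replicate 1, Nr4a2 stood at -1.43 (adjusted p = 0.062) and Dnaja1 at -0.94 (adjusted p = 0.0527), and Dusp5 was not called without any 1 of 5 arrays (adjusted p between 0.0557 and 0.115). Keratinocyte markers summed to 10.3 to 10.4 at day 5 and 11.2 to 11.8 at day 11, against 11.36 to 12.02 untreated, with 7 and 3 of 14 lower. Fibroblast markers summed to 9.28 to 9.68 and 9.52 to 9.63, against 10.9 to 11.5, with 1 of 10 lower on each day. Neutrophil markers summed to 10.40 to 11.2 at day 5 and 10.6 to 11.2 at day 11, against 7.65 to 8.15 untreated, with 2 of 7 risen on each day. Mast cell markers summed to 7.81 to 8.63 and 7.58 to 9.23, against 9.14 to 11.2, with 2 of 5 lower at day 5. The part of these cells in the early gene differences was not tested.

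MHCIIhi macrophages, measured under treatment only at day 11, had their largest falls in Nr4a3 and Nr4a2, while Nr4a1 stood at 0.03 and was not called. Nr4a3 measured 4.53, 6.74 and 6.41 at day 11, against 8.56, 8.30 and 8.89 in untreated cells (-2.69 ± 0.42, 6.45-fold lower, adjusted p = 1.89e-05). Nr4a2 measured 4.97, 5.80 and 6.43, against 8.25, 8.61 and 8.39 (-2.68 ± 0.44, 6.43-fold lower, adjusted p = 3.69e-05). Csrnp1 measured 8.27, 9.29 and 9.35, against 10.92, 10.87 and 10.73 (-1.87 ± 0.33, adjusted p = 0.000135). For all 3, replicate 1 was again the lowest day 11 array, and the groups did not overlap. On that array Nr4a3 lay near the array median of 4.16. Under the alternative settings its difference ran from -3.11 to -2.01, and that of Nr4a2 from -3.03 to -2.30. Maff had 6.72, 7.37 and 7.30, against 8.65, 8.98 and 8.50 (-1.58 ± 0.31, adjusted p = 0.000421). Gadd45b, Fosb, Myc, Hsp90aa1, Dusp5, Dnaja1, Atf3, Klf6, Ier3, Egr3 and Zfp36 also fell, by between -1.50 and -0.34. Without day 11 replicate 1, Ier3 stood at -0.36 (adjusted p = 0.21) and Dusp5 at -0.93 (adjusted p = 0.0586). Ier3 was also lost without untreated replicate 1 (-0.40, adjusted p = 0.165), Zfp36 without untreated replicate 4 or day 11 replicate 3 (adjusted p = 0.158 and 0.108), and Egr3 without any 1 of 4 arrays (adjusted p between 0.0619 and 0.124). Klf2 rose, with 8.26, 8.45 and 8.40 at day 11, against 7.29, 7.44 and 7.75 untreated (0.88 ± 0.25, adjusted p = 0.0134). Ier2, an early gene of unknown biochemical activity, measured 9.15, 9.34 and 9.33, against 8.69, 8.48 and 8.38 (0.76 ± 0.21, adjusted p = 0.0125). Hspe1 measured 10.70, 10.77 and 10.71, against 10.35, 10.22 and 10.11 (0.50 ± 0.13, adjusted p = 0.00705). Every day 11 array exceeded every untreated one for these 3 genes. Each rise missed the threshold without 1 array: Klf2 without untreated replicate 1 or day 11 replicate 2 (adjusted p = 0.0584 and 0.0534), and Ier2 and Hspe1 without untreated replicate 4 (adjusted p = 0.0679 and 0.0516). Keratinocyte markers were higher here, at 12.4 to 13.2, against 11.3 to 12.5 untreated, with 4 of 14 risen. Neutrophil markers summed to 11.9 to 12.4, against 7.66 to 8.08 untreated, with 3 of 7 risen, and fibroblast markers to 9.48 to 10.43, against 10.8 to 11.51, with 0 of 10 called. The part of these cells was not tested.

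In CD11b DC few genes were called at day 5 and more at day 11. Gadd45b measured 8.88, 9.65 and 9.28 at day 5, against 10.70, 10.46 and 10.76 untreated (-1.37 ± 0.29, adjusted p = 0.00196). Klf6, a Krüppel-like factor, measured 10.29, 10.45 and 10.42, against 10.84, 10.85 and 10.91 (-0.48 ± 0.14, adjusted p = 0.0249). The groups did not overlap, but the Klf6 call was lost without any 1 of 4 arrays (untreated replicates 1, 2 and 4, day 5 replicate 2), at adjusted p between 0.0548 and 0.116. At day 11 Nr4a2 measured 5.87, 8.06 and 8.06, against 9.67, 9.65 and 9.41 (-2.25 ± 0.44, 4.75-fold lower, adjusted p = 0.00059). Gadd45b measured 8.84, 8.39 and 9.01, against 10.70, 10.46 and 10.76 (-1.89 ± 0.29, adjusted p = 2.63e-05). Csrnp1 measured 8.63, 7.93 and 10.06, against 10.64, 10.59 and 11.03 (-1.88 ± 0.33, adjusted p = 0.000199). All day 11 arrays were below all untreated ones, but they were far apart among themselves, with replicate 1 lowest for Nr4a2 and replicate 2 lowest for Csrnp1. Dusp5, a nuclear phosphatase of ERK, measured 6.42, 7.70 and 7.61, against 8.57, 8.63 and 8.23 (-1.23 ± 0.30, adjusted p = 0.0065), and the call was lost without day 11 replicate 1 (-0.82, adjusted p = 0.0899). Ier2 rose, with 9.14, 8.66 and 9.08, against 8.13, 8.44 and 7.84 (0.82 ± 0.21, adjusted p = 0.00984), a call lost without untreated replicate 4 (0.67, adjusted p = 0.0791). Fosb, Maff, Atf3, Klf6, Jund and Hsp90aa1 fell by between -1.11 and -0.66. Without day 11 replicate 1, Maff stood at -0.60 (adjusted p = 0.276), and it was not called without any 1 untreated array either (adjusted p between 0.0642 and 0.126). Without day 11 replicate 2, Atf3 stood at -0.59 (adjusted p = 0.0804) and Jund at -0.68 (adjusted p = 0.0658), and Jund was also lost without untreated replicate 1 (adjusted p = 0.0742). A fit of the day 11 and untreated CD11b DC arrays alone called 1 of the 35 genes in place of 11, and a fit of the day 5 and untreated arrays alone called 1 in place of 2. Keratinocyte markers summed to 9.11 to 9.89 at day 5 and 10.7 to 10.9 at day 11, against 10.7 to 11.2 untreated. Neutrophil markers summed to 8.40 to 10.5 at day 5 and 9.88 to 10.3 at day 11, against 6.82 to 7.12 untreated. On each day 3 of 7 rose. Langerhans cell markers summed to 11.2 to 11.5 at day 5 and 10.5 to 11.8 at day 11, against 9.14 to 9.70 untreated. Macrophage markers went the other way, with 10.84 to 10.89 at day 5 and 10.84 to 11.3 at day 11, against 11.5 to 11.7 untreated. The part of these shifts in the early gene differences was not tested.

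The moDC, which arise from monocytes that enter the dermis, changed little at day 5 and showed falls in Gadd45b, Nr4a2 and Hsp90aa1 at day 11. Gadd45b measured 9.02, 9.75 and 9.73 at day 5, against 10.75, 10.73 and 10.67 untreated (-1.22 ± 0.29, adjusted p = 0.00553). Hsp90aa1 measured 9.95, 9.93 and 10.51, against 10.73, 10.68 and 10.61 (-0.54 ± 0.16, adjusted p = 0.0195). Dnaja1, an HSP40 co-chaperone, measured 8.38, 8.72 and 9.35, against 10.07, 9.27 and 9.79 (-0.90 ± 0.27, adjusted p = 0.0272). The Dnaja1 groups overlapped, those of the other two did not, and all 3 calls were lost without day 5 replicate 2, at -0.98 for Gadd45b (adjusted p = 0.0567), -0.45 for Hsp90aa1 (adjusted p = 0.112) and -0.68 for Dnaja1 (adjusted p = 0.175). Hspe1 measured 10.48, 10.58 and 10.57 at day 5, against 10.35, 9.99 and 10.11 (0.39 ± 0.13, adjusted p = 0.0446), and was not called without any 1 of 5 of the 6 arrays. No gene of the 35 was called at day 5 without day 5 replicate 2, and 1 was called in place of 4 when these groups were fitted alone.

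At day 11 Gadd45b in moDC measured 8.52, 7.65 and 8.72, against 10.75, 10.73 and 10.67 in untreated cells (-2.42 ± 0.29, 5.37-fold lower, adjusted p = 1.18e-06). Hsp90aa1 measured 9.57, 9.74 and 9.45, against 10.73, 10.68 and 10.61 (-1.09 ± 0.16, adjusted p = 2.12e-05). Both sets of day 11 arrays lay far below the untreated ones. Nr4a2 had 6.58, 8.53 and 7.94, against 9.29, 9.27 and 9.15 (-1.55 ± 0.44, adjusted p = 0.0203), and Maff had 6.44, 7.43 and 7.30, against 8.29, 8.06 and 8.08 (-1.09 ± 0.31, adjusted p = 0.0221). Neither overlapped, but without day 11 replicate 1, the lowest array for both, Nr4a2 stood at -1.001 (adjusted p = 0.202) and Maff at -0.78 (adjusted p = 0.172). Egr2, Egr1, Fosb and Dnaja1 also fell, by between -1.08 and -0.86. Fosb stood at -0.57 (adjusted p = 0.159) without day 11 replicate 1 and at -0.76 (adjusted p = 0.075) without untreated replicate 1, and Egr2 and Dnaja1 were each lost without any 1 of 4 arrays (adjusted p between 0.0554 and 0.189). Junb, an AP-1 subunit, measured 9.19, 9.18 and 9.29, against 8.81, 8.64 and 8.80 (0.47 ± 0.15, adjusted p = 0.0478), and the call was lost without any 1 of the 6 arrays. Without day 11 replicate 1 there were 3 calls in place of 9, without untreated replicate 1 there were 4, and in a fit of these groups alone there were 2. Fibroblast markers summed to 10.6 to 11.4 at day 11, against 12.6 to 12.9 in untreated moDC, with 7 of 10 lower, and neutrophil markers to 11.4 to 11.9 at day 5 and 11.3 to 11.9 at day 11, against 7.57 to 8.49, with 3 and 2 of 7 risen. Their part was not tested.

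Monocytes were the population in which more genes rose than fell. Hspa1a measured 7.25, 7.92 and 8.56 at day 5, against 6.41, 6.63 and 6.27 in untreated cells (1.47 ± 0.46, 2.77-fold higher, adjusted p = 0.0315). Ier5 measured 7.84, 8.16 and 8.17, against 7.31, 6.99 and 7.09 (0.92 ± 0.23, adjusted p = 0.00719). Neither pair of groups overlapped. Rhob, a small GTPase of the early response, measured 6.40, 6.64 and 6.24, against 5.23, 6.28 and 5.38 (0.80 ± 0.22, adjusted p = 0.0159), and Fos, the founding AP-1 subunit whose promoter is printed above, measured 10.89, 11.16 and 11.23, against 10.06, 11.01 and 10.002 (0.74 ± 0.17, adjusted p = 0.00279). Both overlapped with untreated replicate 2, the array with fibroblast and T cell RNA, which was the highest untreated array for Fos, Rhob, Jun, Egr1 and Myc. Jun, Btg2, Junb, Ier2 and Hspe1 also rose, by 0.73, 0.73, 0.64, 0.62 and 0.38.

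Among the monocyte falls, Gadd45b measured 9.50, 9.46 and 8.91 at day 5, against 10.09, 10.44 and 10.28 untreated (-0.98 ± 0.29, adjusted p = 0.0218). Dnaja1 measured 9.20, 8.61 and 8.99, against 9.44, 10.09 and 10.17 (-0.97 ± 0.27, adjusted p = 0.0157). Myc measured 9.06, 8.50 and 8.63, against 9.45, 10.46 and 9.19 (-0.97 ± 0.25, adjusted p = 0.00983). The groups did not overlap, and without untreated replicate 2 the values were -0.89 for Gadd45b (adjusted p = 0.0786), -0.87 for Dnaja1 (adjusted p = 0.0654) and -0.59 for Myc (adjusted p = 0.137). Hsp90aa1 measured 9.83, 9.93 and 10.61, against 10.69, 10.47 and 10.71 (-0.50 ± 0.16, adjusted p = 0.0282), with overlap at day 5 replicate 4. The whole monocyte result rested on few arrays: leaving out 1 array at a time left between 4 (without day 5 replicate 3) and 9 (without day 5 replicate 2) of the 13 calls, with 6, 7 and 5 without untreated replicates 1, 2 and 4. A fit of the 6 monocyte arrays alone called 0 of the 35 genes, where the fit over all 48 arrays had called 13 and 16 were at an unadjusted p under 0.05. Without untreated replicate 1, Rhob stood at 0.60 (adjusted p = 0.105), and without day 5 replicate 4 Hspa1a stood at 1.14 (adjusted p = 0.163). The Hspa1a call was also lost without untreated replicate 1, 2 or 4 (adjusted p = 0.0642, 0.0523 and 0.0781). Btg2 and Ier2 were each lost without any 1 of the 6 arrays. Neutrophil markers summed to 10.1 to 11.978 at day 5, against 8.61 to 9.06 untreated, with 3 of 7 risen, and their part was not tested.

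Seen gene by gene, Gadd45b fell in 4 of 5 populations at day 5 and in 5 of 5 at day 11. Its day 5 call was lost without untreated replicate 2 in monocytes (adjusted p = 0.0786). In moDC it was lost without day 5 replicate 2 (adjusted p = 0.0567). Its day 11 calls were kept under every alternative setting. Fosb, Maff, Nr4a2 and Hsp90aa1 fell in all 5 populations at day 11, and Atf3, Klf6 and Csrnp1 in 4 of 5. Of these tallies, those of Hsp90aa1 and Klf6 kept every call when any 1 array was left out, while those of Fosb, Maff, Nr4a2, Atf3 and Csrnp1 each hold at least 1 call that ended without a single array. In moDC those were Maff (-0.78, adjusted p = 0.172), Nr4a2 (-1.001, adjusted p = 0.202) and Fosb, each without day 11 replicate 1. For Fosb, Maff, Nr4a2 and Klf6 the day 11 array numbered 1 was the lowest in all 5 populations. What the numbers share is not given, so the populations in a tally may not be independent of each other. Hspe1 rose in 4 of 5 populations at day 5 and in 2 of 5 at day 11, and its difference was positive in all 10 comparisons. Each of its 4 calls at day 5, and that in MHCIIhi macrophages at day 11, was lost without some single array. Only its call in Langerhans cells at day 11 was kept under every alternative setting. Over the 10 comparisons, 20 of the 35 genes only fell where they were called and 9 only rose (Fos, Junb, Klf2, Ier2, Ier5, Socs3, Btg2, Rhob and Hspe1). Jun and Hspa1a fell in Langerhans cells and rose in monocytes. Dusp1, Dusp2, Hspa8 and Hsph1 were called in none: their differences ran from -0.21 to 0.22, -1.02 to 0.88, -0.27 to 0.07 and -0.62 to 0.62, and their lowest adjusted p were 0.151, 0.0871, 0.203 and 0.149.

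**Figure D3:**
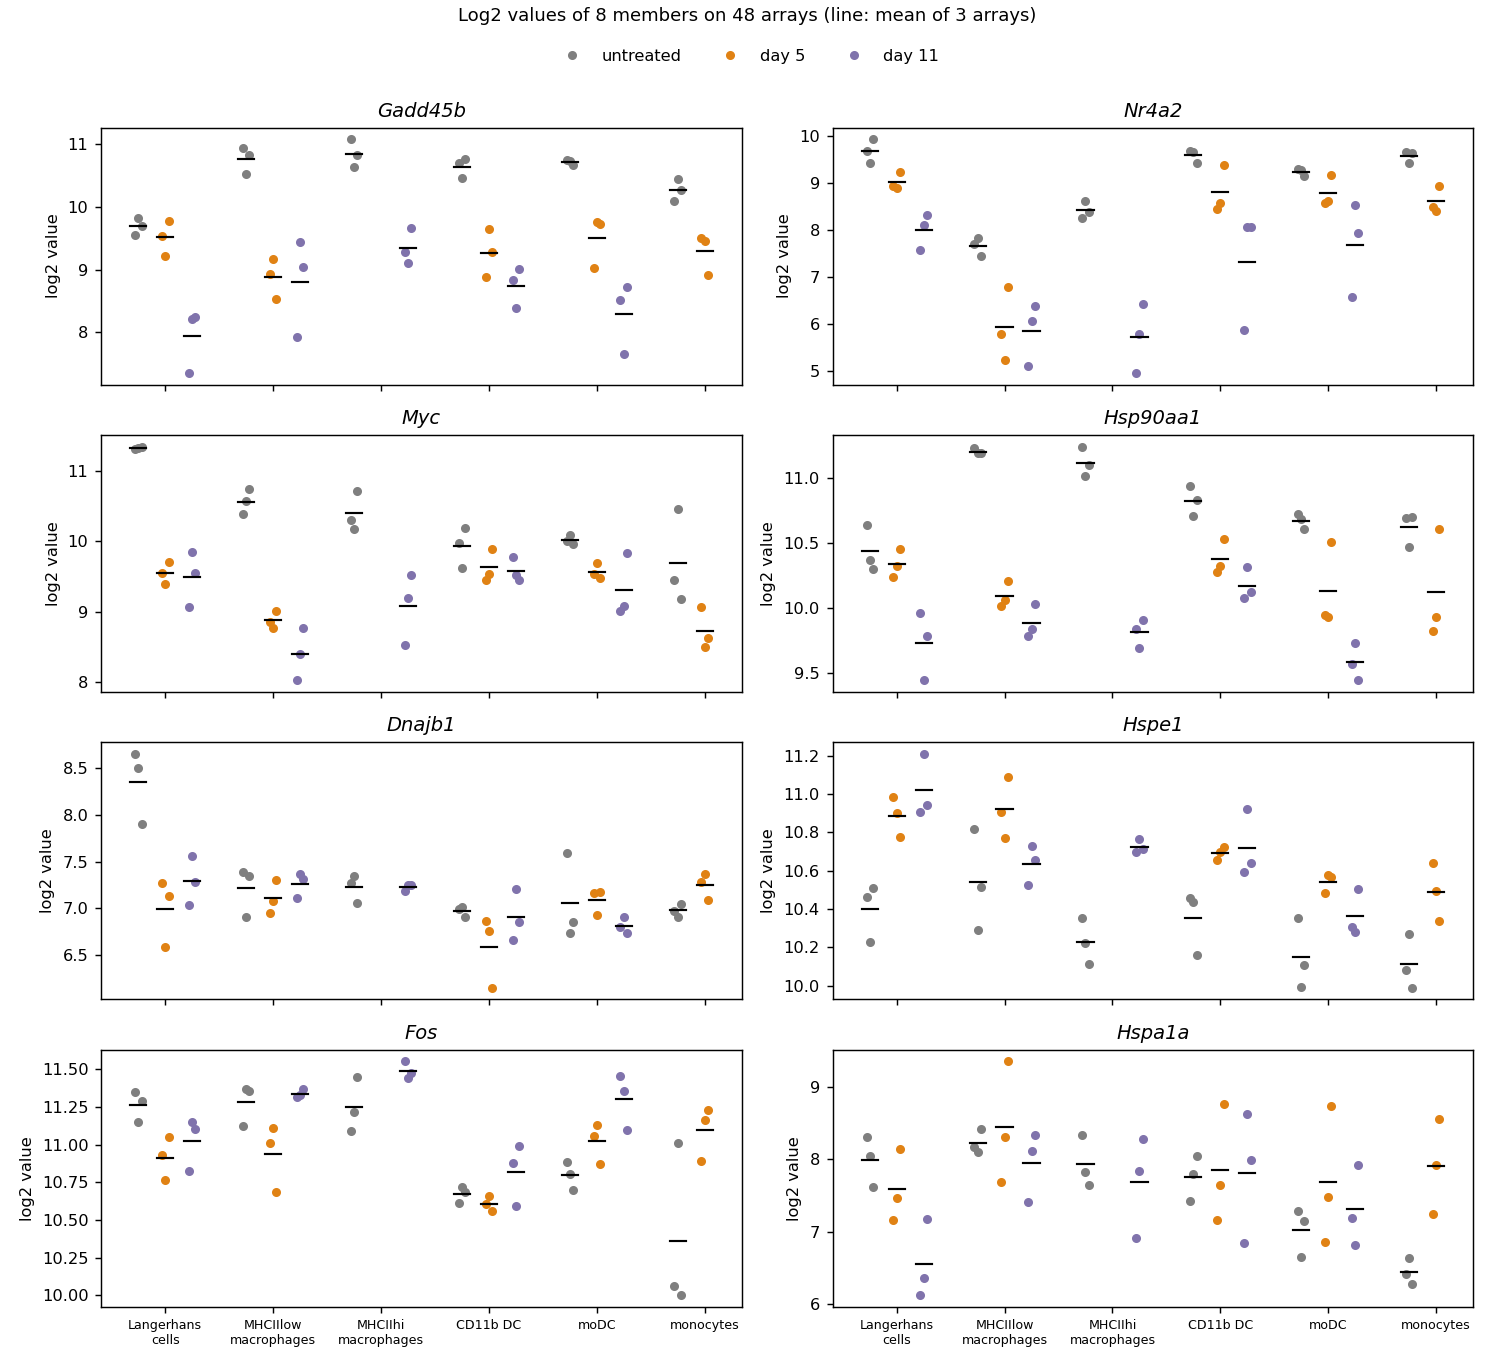
Log2 values of Gadd45b, Nr4a2, Myc, Hsp90aa1, Dnajb1, Hspe1, Fos and Hspa1a on each of the 48 arrays, by population and by treatment (untreated, day 5, day 11); lines are means of 3 arrays and each panel has its own scale. Gadd45b and Hsp90aa1 are lower at day 11 than untreated in all 5 populations measured then, Dnajb1 is higher in untreated Langerhans cells than in any other group, and Fos is lower than 10.1 on 2 untreated monocyte arrays.

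Genes often used as signs of an acute response did not move alike. Under imiquimod Dusp1 was called nowhere, Fos only in monocytes and Egr1 only in moDC, while Jun and Hspa1a fell in Langerhans cells and rose in monocytes. Fos measured 11.35, 11.15 and 11.29 in untreated Langerhans cells, 10.93, 10.76 and 11.05 at day 5 and 10.82, 11.15 and 11.10 at day 11. In MHCIIlow macrophages it was 11.12, 11.37 and 11.36 untreated, 11.01, 11.11 and 10.69 at day 5 and 11.31, 11.33 and 11.37 at day 11. The day 5 Langerhans arrays lay below the untreated ones (-0.35 ± 0.17, adjusted p = 0.175), as did the day 5 MHCIIlow macrophage arrays, by a narrow margin (-0.34 ± 0.17), and neither was called. CD11b DC had 10.61, 10.72 and 10.68 untreated, 10.60, 10.66 and 10.56 at day 5 and 10.88, 10.59 and 10.99 at day 11, and moDC had 10.89, 10.80 and 10.70, then 11.06, 11.13 and 10.87, then 11.46, 11.36 and 11.10. MHCIIhi macrophages measured 11.55, 11.44 and 11.47 at day 11, against 11.09, 11.21 and 11.45 untreated. Under treatment Fos was called only in monocytes, where a fit of those 6 arrays alone gave an adjusted p of 0.245, and in moDC its day 11 arrays lay above the untreated ones without passing the test.

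Egr1, the EGR factor induced through ERK, fell in moDC at day 11 and was called nowhere else under treatment. In moDC it measured 9.78, 10.12 and 9.99 untreated, 9.37, 9.63 and 9.41 at day 5 and 8.90, 9.04 and 9.22 at day 11 (day 11 minus untreated, -0.91 ± 0.22, adjusted p = 0.0067). Langerhans cells had 10.82, 10.79 and 10.87, then 10.49, 10.26 and 10.67, then 10.38, 10.49 and 10.56 in the same order. In both populations all treated arrays were below the untreated ones. MHCIIlow macrophages had 10.27, 10.59 and 10.62 untreated, 10.17, 10.36 and 10.12 at day 5 and 10.34, 10.63 and 10.77 at day 11. CD11b DC had 9.26, 9.52 and 9.72, then 8.81, 9.22 and 9.29, then 9.08, 9.21 and 9.31. Macrophage and CD11b DC groups overlapped. MHCIIhi macrophages had 10.57, 10.70 and 10.74 at day 11, against 10.56, 10.61 and 10.56 untreated, and monocytes 9.52, 9.71 and 9.37 at day 5, against 8.66, 10.42 and 9.45, where the untreated arrays spanned more than the treated ones.

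Jun, the partner of FOS in AP-1, differed between populations in its course. Langerhans cells fell at both days (above for day 5), with 9.46, 9.31 and 9.47 at day 11, against 10.47, 10.32 and 10.21 untreated (-0.92 ± 0.22, adjusted p = 0.00245). MHCIIlow macrophages had 10.39, 10.54 and 10.84 untreated, 9.86, 10.03 and 9.82 at day 5 and 10.07, 10.10 and 10.03 at day 11, with a call at day 5 (-0.69 ± 0.22, adjusted p = 0.0335) that was lost without any 1 of 5 of the 6 arrays (adjusted p between 0.0518 and 0.154). No treated array of either population reached an untreated one. Monocytes had 9.59, 9.99 and 9.89 at day 5, against 8.70, 9.81 and 8.76 untreated (0.73 ± 0.22, adjusted p = 0.0255), and the call was lost without untreated replicate 1 (0.54, adjusted p = 0.149) or 4 (0.57, adjusted p = 0.125). MHCIIhi macrophages had 10.18, 10.31 and 9.91 at day 11, against 10.27, 10.46 and 10.61. CD11b DC had 9.02, 9.46 and 9.32 untreated, 9.39, 9.43 and 9.54 at day 5 and 9.45, 8.16 and 8.95 at day 11, and moDC had 9.35, 9.37 and 9.47, then 9.18, 9.56 and 9.46, then 9.79, 9.38 and 9.36. In the last 3 populations the groups overlapped and no call was made.

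Dusp1, the phosphatase that switches off p38 and JNK, was high and, under imiquimod, flat. Its 48 values lay between 11.41 and 12.43. Langerhans cells measured 11.70, 11.61 and 11.88 untreated, 11.52, 11.49 and 11.55 at day 5 and 11.41, 11.75 and 11.61 at day 11, and MHCIIlow macrophages 12.17, 12.27 and 12.13, then 12.21, 12.04 and 11.95, then 12.14, 12.32 and 12.43. CD11b DC measured 12.01, 12.08 and 12.06, then 11.72, 11.91 and 12.04, then 11.89, 12.02 and 12.02 in that order, and moDC 12.12, 12.13 and 11.87, then 11.91, 12.10 and 11.98, then 12.14, 12.24 and 12.26. These groups lay close together, although the day 5 Langerhans arrays were below the untreated ones and the day 11 moDC arrays above them, without a call. MHCIIhi macrophages had 12.42, 12.38 and 12.39 at day 11, against 12.26, 12.26 and 12.30 untreated, and monocytes 12.17, 12.22 and 12.20 at day 5, against 11.84, 12.01 and 12.07, without overlap in either and without a call.

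The constitutive HSP70 gene Hspa8 was as flat, and its 48 values lay between 11.36 and 12.02. Langerhans cells had 11.72, 11.53 and 11.69 untreated, 11.49, 11.57 and 11.60 at day 5 and 11.55, 11.57 and 11.53 at day 11, and moDC 11.82, 11.42 and 11.93, then 11.68, 11.87 and 11.64, then 11.64, 11.93 and 11.82. MHCIIlow macrophages had 11.98, 11.94 and 11.81, then 11.77, 11.74 and 11.79, then 11.67, 11.56 and 11.69, and CD11b DC 11.67, 11.76 and 11.52, then 11.57, 11.54 and 11.89, then 11.63, 11.36 and 11.78. Only in MHCIIlow macrophages did treated and untreated Hspa8 values not overlap, and there the test was not passed. MHCIIhi macrophages had 11.88, 11.58 and 11.54 at day 11, against 11.86, 11.79 and 12.02, and monocytes 11.88, 11.58 and 11.88 at day 5, against 11.68, 11.86 and 11.66.

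Hspa1a, by contrast, varied more within groups than between most of them. At day 5 it measured 7.16, 7.47 and 8.15 in Langerhans cells, 7.69, 8.31 and 9.36 in MHCIIlow macrophages, 7.16, 7.64 and 8.76 in CD11b DC and 6.86, 7.48 and 8.74 in moDC. In these, as in monocytes, the order of the 3 arrays was the same: the sample numbered 2 in the titles was the lowest, 3 was between and 4 was the highest in 5 of 5 populations. The labels do not say what these numbers share. Untreated values were 8.31, 8.05 and 7.62 in Langerhans cells, 8.17, 8.10 and 8.42 in MHCIIlow macrophages, 7.43, 7.80 and 8.04 in CD11b DC and 7.29, 6.64 and 7.15 in moDC. At day 11, MHCIIlow macrophages had 7.40, 8.11 and 8.34, CD11b DC 6.84, 8.62 and 7.99 and moDC 7.19, 6.82 and 7.92. MHCIIhi macrophages had 6.92, 7.84 and 8.29 at day 11, against 8.34, 7.83 and 7.65 untreated. Treated and untreated Hspa1a values overlapped in all of these except the Langerhans cells at day 11 and the monocytes at day 5 described above.

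The near-identical genes Hspa1a and Hspa1b lie side by side, and the probe set that carries both symbols gave similar differences to the Hspa1a set in those comparisons. It measured 8.21, 8.40 and 8.93 in monocytes at day 5, against 6.82, 8.09 and 6.59 untreated, a difference of 1.35, and its difference in Langerhans cells was -0.76 at day 5 and -1.69 at day 11. Signal of either gene on the other's probes cannot be told apart. For Dnaja1 the 2 probe sets did not give the same picture: the one used fell by -1.13 in MHCIIlow macrophages at day 11 and by -0.90 in moDC at day 5, where the other stood at 0.17 and -0.04. In MHCIIhi macrophages at day 11 they gave -1.08 and -0.70, and in monocytes at day 5 -0.97 and -0.50. The falls of Dnaja1 are uncertain for that reason. The second set of Socs3 gave larger differences than the one used in macrophages at day 11, with -1.29 against -0.57 in MHCIIlow and -1.18 against -0.59 in MHCIIhi macrophages, neither called in the set used. In Langerhans cells it gave 1.10 against 1.06 at day 5 and 0.81 against 0.34 at day 11.

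Between day 11 and day 5 few genes differed, in a background of few differences overall. Day 5 and day 11 samples carry different title letters, which cannot be told apart from the day. In Langerhans cells 3 of 35 were lower at day 11 and 0 higher, where 1.54% and 0.577% of all genes were. Nr4a3 measured 8.11, 8.29 and 8.36 at day 11, against 9.81, 9.99 and 10.35 at day 5 (-1.80 ± 0.42, adjusted p = 0.0111). Gadd45b measured 7.35, 8.21 and 8.25, against 9.54, 9.22 and 9.78 (-1.58 ± 0.29, adjusted p = 0.000973). Hsp90aa1 measured 9.96, 9.45 and 9.79, against 10.24, 10.33 and 10.46 (-0.61 ± 0.16, adjusted p = 0.0245). No day 11 array reached a day 5 array. The Nr4a3 call was lost without day 5 replicate 4 (-1.65, adjusted p = 0.064) and the Hsp90aa1 call without any 1 of 5 arrays, the lowest being day 11 replicate 2 (-0.47, adjusted p = 0.262). In moDC, Gadd45b was the 1 gene lower (0.866% of all genes lower, 0.148% higher, and 0 of 35 higher), with 8.52, 7.65 and 8.72 at day 11, against 9.02, 9.75 and 9.73 at day 5 (-1.20 ± 0.29, adjusted p = 0.0292). In CD11b DC it was Csrnp1 (0.706% lower, 0.257% higher, and 0 of 35 higher), with 8.63, 7.93 and 10.06, against 10.15, 10.18 and 10.15 (-1.29 ± 0.33, adjusted p = 0.0487). Neither pair overlapped, yet Gadd45b was lost without day 11 replicate 2 (-0.88, adjusted p = 0.237) or day 5 replicate 3 or 4, and Csrnp1 without any 1 of 5 arrays, falling to -0.82 (adjusted p = 0.566) without day 11 replicate 2, the array that stood apart. In MHCIIlow macrophages limma called 0 of 35 genes in either direction (0.398% lower and 0.0834% higher), where 6 were at an unadjusted p under 0.05. Array weights gave 1 call there.

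Before treatment the 6 populations already differed in most of these genes. An F-test over the 6 untreated groups was passed by 32 of 35 genes, 28 of 28 early and 4 of 7 heat shock genes, where 40.6% of all genes passed. Hspa8, Hsph1 and Dnaja1 did not pass it. The spread between the highest and lowest population was 4.16 for Nr4a3, 2.52 for Rhob, 2.02 for Nr4a2 and 1.96 for Socs3, down to 0.42 for Zfp36 and 0.27 for Hspa8. Nr4a3 averaged 10.68 ± 0.18 in Langerhans cells, 9.70 ± 0.13 in CD11b DC, 8.58 ± 0.30 in MHCIIhi macrophages, 8.35 ± 0.24 in moDC, 7.67 ± 0.44 in monocytes and 6.52 ± 0.45 in MHCIIlow macrophages. Of these neighbours, MHCIIhi macrophages and moDC lay within their spread of each other. The tests of Langerhans cells against CD11b DC, of CD11b DC against moDC and of moDC against monocytes did not call Nr4a3. Myc averaged 11.33 ± 0.02 in Langerhans cells, then 10.57 ± 0.18 in MHCIIlow macrophages, 10.40 ± 0.28 in MHCIIhi macrophages, 10.02 ± 0.07 in moDC, 9.93 ± 0.29 in CD11b DC and 9.70 ± 0.67 in monocytes. For Myc the macrophage populations did not differ from each other beyond their spread, nor did moDC, CD11b DC and monocytes. Fos averaged 11.28 ± 0.14, 11.26 ± 0.10 and 11.25 ± 0.18 in MHCIIlow macrophages, Langerhans cells and MHCIIhi macrophages, then 10.80 ± 0.09 in moDC, 10.67 ± 0.06 in CD11b DC and 10.36 ± 0.57 in monocytes. The first 3 of these did not differ beyond their spread.

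Untreated Langerhans cells, from the epidermis, were set against untreated CD11b DC, from the dermis. Their title letters differ as well, and the letter cannot be told apart from the population here. In Langerhans cells 10 of 35 genes were higher and 6 lower, against 11.2% and 11.9% of all genes. Myc measured 11.31, 11.33 and 11.35 in Langerhans cells, against 9.98, 9.62 and 10.19 in CD11b DC (1.40 ± 0.25, adjusted p = 4.35e-05). Dnajb1 measured 8.65, 8.50 and 7.90, against 6.99, 7.01 and 6.91 (1.38 ± 0.20, adjusted p = 1.11e-06). Egr1 measured 10.82, 10.79 and 10.87, against 9.26, 9.52 and 9.72 (1.32 ± 0.22, adjusted p = 9.19e-06). The groups did not overlap for any of them. Ier2 measured 9.48, 9.24 and 9.44, against 8.13, 8.44 and 7.84 (1.25 ± 0.21, adjusted p = 1.55e-05). Btg2, an antiproliferative protein, measured 10.64, 10.44 and 10.52, against 9.10, 9.41 and 9.44 (1.22 ± 0.24, adjusted p = 0.000181), and Egr3 measured 7.24, 6.83 and 7.09, against 5.94, 5.83 and 5.93 (1.15 ± 0.16, adjusted p = 5.12e-07). Jun, Fosb, Fos and Junb were higher by 1.07, 0.64, 0.59 and 0.46, and in all 10 the Langerhans arrays lay above every CD11b DC array. The Fosb call was lost without any 1 of the 6 arrays (adjusted p between 0.0573 and 0.162) and the Junb call without any 1 of 4 (adjusted p between 0.0533 and 0.121).

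Socs3 was the largest difference in the other direction, with 8.36, 7.78 and 8.00 in untreated Langerhans cells, against 9.85, 9.45 and 9.93 in untreated CD11b DC (-1.69 ± 0.22, 3.23-fold lower, adjusted p = 1.25e-07). Gadd45b measured 9.55, 9.82 and 9.70, against 10.70, 10.46 and 10.76 (-0.95 ± 0.29, adjusted p = 0.014). Klf2 measured 6.62, 6.49 and 6.87, against 7.15, 7.99 and 7.51 (-0.89 ± 0.25, adjusted p = 0.00662). No Langerhans array reached a CD11b DC array. Ier5 measured 6.73, 6.83 and 6.43, against 7.01, 7.94 and 7.29 (-0.75 ± 0.23, adjusted p = 0.016). Klf6 measured 10.44, 10.50 and 10.35, against 10.84, 10.85 and 10.91 (-0.44 ± 0.14, adjusted p = 0.0173), and Dusp1 was lower by -0.32 (adjusted p = 0.0207). Without CD11b DC replicate 2, Klf2, Ier5 and Dusp1 were not called (adjusted p = 0.0753, 0.175 and 0.0616). Without CD11b DC replicate 4, Gadd45b, Klf6 and Dusp1 were not called (adjusted p = 0.0517, 0.0561 and 0.0545). All 14 keratinocyte markers were higher in untreated Langerhans cells, which summed to 14.4 to 14.6, against 10.7 to 11.2 in CD11b DC, and their part was not tested.

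The other 3 pairs of untreated populations that were tested differed in 1 gene each. Egr2 was higher in untreated moDC than in untreated monocytes, with 9.44, 9.75 and 10.20, against 8.27, 8.21 and 8.17 (1.58 ± 0.32, adjusted p = 0.0015), beside 2.16% of all genes higher and 1.27% lower. In the list of 35, 0 were lower in moDC. Nr4a3 was higher in untreated MHCIIhi than in untreated MHCIIlow macrophages, with 8.56, 8.30 and 8.89, against 7.03, 6.36 and 6.18 (2.06 ± 0.42, adjusted p = 0.00489), beside 0.552% of all genes higher and 0.346% lower, with 0 of the 35 lower. Rhob was lower in untreated CD11b DC than in untreated moDC, with 5.49, 4.63 and 5.06, against 6.37, 6.05 and 5.66 (-0.97 ± 0.22, adjusted p = 0.00839), beside 1.65% of all genes lower and 1.92% higher, with 0 of the 35 higher. None of the 3 pairs overlapped. The Nr4a3 call was lost in a fit of its 2 groups alone (adjusted p = 0.0622), and the Rhob call without moDC replicate 1 (-0.79, adjusted p = 0.0674) or CD11b DC replicate 2 (-0.75, adjusted p = 0.101). Without both arrays that stood apart, 4 genes in place of 1 differed between untreated moDC and monocytes.

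The response of Langerhans cells, imiquimod minus untreated, was then set against the mean response of the 4 dermal populations measured on the same day. Untreated Langerhans and untreated dermal samples carry different title letters, so the letter cannot be told apart from these differences of responses. At day 5 it was lower in 7 genes and higher in 3, where 6.21% and 7.32% of all genes were. For Egr2, which fell in Langerhans cells and was not called in the dermal populations (-0.82 to 0.90), the difference of responses was -1.57 ± 0.35 (adjusted p = 0.00166). For Dnajb1 the difference of responses was -1.31 ± 0.23 (adjusted p = 5.29e-05), and for Jun -1.13 ± 0.25 (adjusted p = 0.00124). Dnajb1 was called in none of the 4 dermal populations (-0.38 to 0.27), and Jun fell in MHCIIlow macrophages and rose in monocytes. Ier2, Rhob and Junb had differences of responses of -0.95, -0.94 and -0.58, with responses of -0.51, -0.56 and -0.40 in Langerhans cells and rises in monocytes (0.62, 0.80 and 0.64). For Myc, which fell in Langerhans cells, MHCIIlow macrophages and monocytes, the difference was -0.93 ± 0.28 (adjusted p = 0.0234). Gadd45b went the other way, with a difference of responses of 1.19 ± 0.33 (adjusted p = 0.0103): Langerhans cells stood at -0.18, while the gene fell in all 4 dermal populations. Socs3 differed by 0.97 ± 0.25 (adjusted p = 0.00562) and Hsp90aa1 by 0.56 ± 0.17 (adjusted p = 0.0267). The Myc call was lost without any 1 of 5 Langerhans arrays (adjusted p between 0.0511 and 0.0846), that of Rhob without day 5 replicate 3 (-0.78, adjusted p = 0.0642), that of Junb without any 1 of 3 and that of Hsp90aa1 without any 1 of 4.

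At day 11 the Langerhans response was lower in 3 genes and higher in 2, where 5.57% and 6.82% of all genes were. The members' shares were thus close to those of all genes. Ier2 differed by -1.04 ± 0.24 (adjusted p = 0.00202) and Dnajb1 by -0.996 ± 0.23 (adjusted p = 0.00189). Klf2, which stood at -0.54 in Langerhans cells and rose in MHCIIhi macrophages, differed by -1.005 ± 0.28 (adjusted p = 0.0117). Ier5 differed by 1.12 ± 0.26 (adjusted p = 0.00238) and Socs3 by 0.79 ± 0.25 (adjusted p = 0.0291). The Klf2 call was lost without untreated replicate 3 or day 11 replicate 1 or 2 (adjusted p = 0.0516, 0.0704 and 0.0506), and the Socs3 call without any 1 of 4 Langerhans arrays (adjusted p between 0.0692 and 0.188). Without both arrays that stood apart, 10 genes in place of 5 differed at day 11. Keratinocyte markers fell in Langerhans cells as described above, and their part in these differences was not tested.

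**Figure D4:**
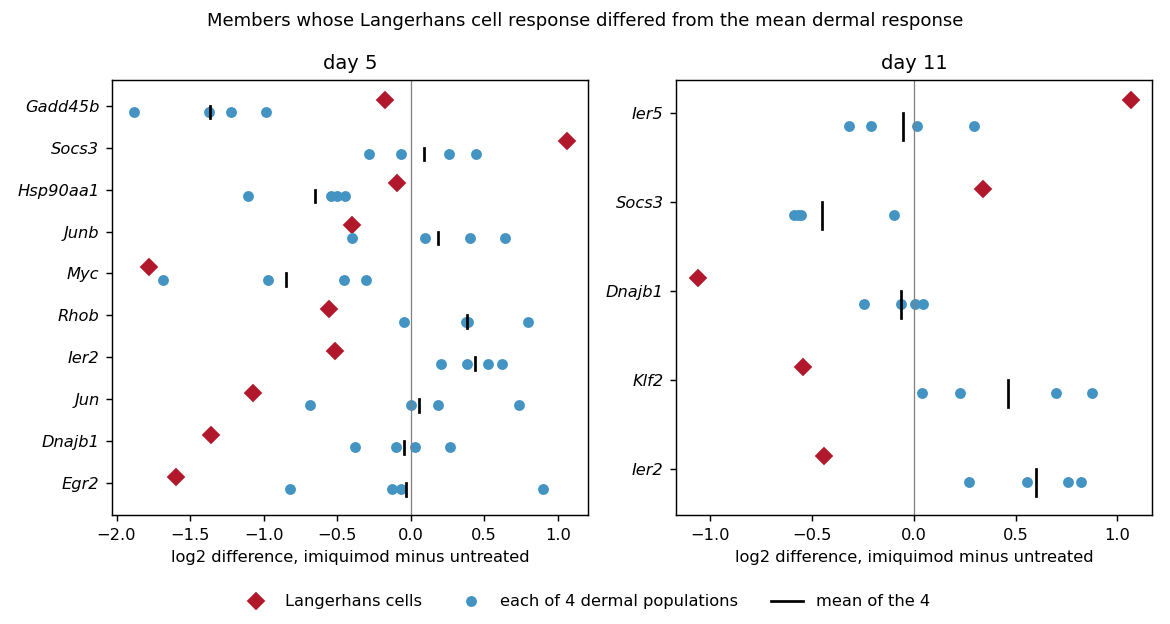
Log2 difference, imiquimod minus untreated, of the genes whose Langerhans cell response differed from the mean dermal response (adjusted p under 0.05), at day 5 (left, 10 genes) and day 11 (right, 5 genes). Diamonds are Langerhans cells, circles the 4 dermal populations and bars their mean. Dnajb1 stands at -1.36 and -1.06 in Langerhans cells, apart from the dermal populations, which lie near 0, and Gadd45b at day 5 is near 0 in Langerhans cells alone.

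A list of 40 other early response genes, outside the 36, was called mainly downward at day 11, as the 35 were. It was drawn up with earlier results of these data known. At day 11, 21 fell and 1 rose in Langerhans cells, 22 fell and 0 rose in MHCIIhi macrophages, 21 and 0 in MHCIIlow macrophages, 13 and 0 in CD11b DC and 9 and 1 in moDC. At day 5, 17 fell and 0 rose in MHCIIlow macrophages, 11 and 4 in Langerhans cells, 4 and 0 in CD11b DC, 2 and 2 in moDC, and in monocytes 0 fell and 5 rose. The shares of all genes were those given above. Fosl1, the FRA-1 subunit of AP-1, fell in all 5 populations at day 11, by -3.63 ± 0.27 in Langerhans cells (adjusted p = 8.67e-13), -2.55 ± 0.27 in MHCIIlow macrophages, -2.46 ± 0.27 in moDC, -2.40 ± 0.27 in MHCIIhi macrophages and -2.32 ± 0.27 in CD11b DC. In Langerhans cells Klf4 fell by -2.90 and Ppp1r15a, the GADD34 phosphatase subunit, by -1.70 at day 11. Tnf fell by -2.77 in MHCIIlow and -2.32 in MHCIIhi macrophages at day 11, and Gadd45a by -2.22 in MHCIIlow macrophages. The chemokine genes Ccl3 and Ccl4 rose by 3.35 and 2.99 in Langerhans cells at day 5, and Ccl4 rose by 2.86 in monocytes and by 1.65 in moDC at day 5.

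Of 32 other chaperones of the cytosol and mitochondria, 7 rose and 5 fell in Langerhans cells at day 5, and 0 rose and 6 fell at day 11. Among all genes 8.64% rose and 7.49% fell at day 5, and 9.31% and 8.4% at day 11. Among the 32, the largest falls were these: Hspb1 fell by -3.48 ± 0.41 at day 5 and -3.71 ± 0.41 at day 11, Dnajb4 by -2.28 and -2.13, and Hspb8 by -2.25 and -1.96. Hspb1, which keratinocytes express abundantly, was 4.35 higher in untreated Langerhans cells than in untreated CD11b DC, and keratinocyte markers fell beside it. Bag3, an HSP70 co-chaperone that HSF1 induces, fell in CD11b DC by -1.68 ± 0.23 at day 5 and -1.44 ± 0.23 at day 11, and in MHCIIlow macrophages by -1.38 ± 0.23 and -1.47 ± 0.23. In the other populations between 0 and 3 of the 32 rose and between 2 and 6 fell at either day, apart from MHCIIlow macrophages at day 5, where 6 rose. In these comparisons between 2.58% and 7.45% of all genes rose and between 4.96% and 7.49% fell.

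A further list held 16 genes of the unfolded protein response of the endoplasmic reticulum, another stress programme. At day 5, 8 of them rose and 2 fell in Langerhans cells (8.64% and 7.49% of all genes), with the largest differences in Sdf2l1 (1.51 ± 0.26), Dnajb9 (-1.42 ± 0.19) and Pdia4 (1.04 ± 0.26). In monocytes 0 rose and 5 fell (6.43% and 6.31% of all genes), in moDC 1 and 3 (5.68% and 5.61%), in MHCIIlow macrophages 2 and 5 (7.22% and 6.95%) and in CD11b DC 0 and 3 (3.01% and 4.96%). The response of Langerhans cells minus the dermal mean was 1.17 ± 0.29 for Sdf2l1 (adjusted p = 0.00456) and 1.13 ± 0.16 for Hsp90b1 (adjusted p = 1.17e-06), and no test of the list as a whole was made. At day 11, 2 rose and 4 fell in Langerhans cells (9.31% and 8.4% of all genes). None rose in the 4 dermal populations, where between 2.58% and 7.45% of all genes rose. In CD11b DC 8 fell (6.79% of all genes), in MHCIIhi macrophages 7 (7.49%), and 5 each in MHCIIlow macrophages and moDC (5.39% and 5.84%). Atf4, the factor of the integrated stress response, fell by -1.48 ± 0.16 in CD11b DC at day 11, and Hspa5, the BiP chaperone, by -1.55 ± 0.18. Among 15 measured upstream regulators (kinases and factors that act on early and heat shock genes), Map2k3, which activates p38, fell in each dermal comparison, from -0.94 in moDC at day 5 to -2.21 in MHCIIlow macrophages at day 11. In Langerhans cells Map2k1, which activates ERK, rose by 1.09 at day 5 and 1.37 at day 11, and Elk3, a ternary complex factor, by 0.86 and 1.33.

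The genes outside the set whose levels followed the mean of the 28 early genes most closely over the 48 arrays were Tiparp (Pearson r = 0.884), Rabgef1 (0.882), Tgif1 (0.873), Phlda1 (0.852) and Tob2 (0.850). Those closest to the mean of the 7 heat shock genes were Naa50 (0.702), Plau (0.697), Pcna (0.685), Ppp1r10 (0.681) and Golph3 (0.666). The 48 arrays share populations, treatments and a common normalisation, so these correlations are a description.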

How the data were processed

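The deposited table holds log2 expression values that the authors obtained by RMA, a background correction, quantile normalisation and probe summary. Per the submitters' processing notes, oligo and limma were used; versions are not given in the sources used here. The 36 genes and every other list were chosen with earlier results of these data known. Of 35556 probe sets, 21789 carry a single gene symbol. A probe set was kept if 3 or more arrays exceeded 3.77, which is the 40th percentile of the table, leaving 17017, and 1 per gene was used, giving 15591 genes. A mean per group was fitted over 48 arrays with limma 3.58.1 in R 4.3.3. P-values were adjusted by the Benjamini-Hochberg method within each comparison, and genes under 0.05 were called. Figures used matplotlib 3.10.9 and Python 3.11.15. The fit was tested on simulated data.

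All members are counted. Values per array are given for called members in order of size, up to 6 rises and 6 falls in a Langerhans comparison and 4 of each elsewhere, for some further called members, and for Fos, Egr1, Jun, Dusp1, Hspa1a and Hspa8 in all groups. From other lists up to 3 called genes a comparison were eligible. Alternative settings and the removal of each array were run.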

Additional observations from a re-analysis of the deposited data

Results flagged for a closer look

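In 15 cases the response of Langerhans cells (imiquimod minus untreated) differed from the mean response of the 4 dermal populations by the limma interaction test, with a Benjamini-Hochberg adjusted p under 0.05 over all genes. At day 5 the difference of responses was negative for Egr2 (-1.57), Dnajb1 (-1.31), Jun (-1.13), Ier2 (-0.95), Rhob (-0.94), Myc (-0.93) and Junb (-0.58). It was positive at day 5 for Gadd45b (1.19), Socs3 (0.97) and Hsp90aa1 (0.56). At day 11 it was negative for Ier2 (-1.04), Klf2 (-1.005) and Dnajb1 (-0.996) and positive for Ier5 (1.12) and Socs3 (0.79). Ier2, Dnajb1 and Socs3 appear on both days, which share the untreated arrays. Among all genes 6.21% were lower and 7.32% higher at day 5, and 5.57% and 6.82% at day 11. At day 11 the members' shares were close to those of all genes. Title letters differ between untreated Langerhans and untreated dermal samples and cannot be told apart from these differences.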

How the results depend on the processing

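None of the 153 calls of single genes reversed its direction under any alternative run, and 76 of the 153 were kept under all runs. Direction was scored for these calls only. Counts of called genes moved by over 1.5 times in the following cases, with the reported count in brackets, and the cause was not tested. After renewed quantile normalisation, 0 genes differed between day 11 and day 5 in moDC (1) and in CD11b DC (1), and 9 between the Langerhans and dermal responses at day 11 (5). With median-centred arrays these were 2 for moDC and 0 for CD11b DC between the days, and 2 for untreated CD11b DC against moDC (1). With no filter on low values CD11b DC differed in 0 between the days, and with a filter at the 60th percentile untreated CD11b DC and moDC differed in 2. With only the groups compared in the fit, 14 genes were called in Langerhans cells at day 5 (9), 0 in monocytes (13), 1 in moDC at day 5 (4), 1 in CD11b DC at day 5 (2), 2 in moDC at day 11 (9), 1 in CD11b DC at day 11 (11), 0 between the days in moDC and CD11b DC, and 0 between untreated macrophages (1). Array weights gave 7 in monocytes, 5 in CD11b DC at day 5, 3 in moDC at day 11, 5 between the days in Langerhans cells (3), 1 in MHCIIlow macrophages (0) and 0 in CD11b DC, and 8 for the Langerhans and dermal responses at day 11. The replicate block gave 2 between the days in moDC and 0 in CD11b DC. It also ended the calls of Btg2, Hspe1 and Ier2 in monocytes (adjusted p = 0.0767, 0.051 and 0.0509) and of Dnaja1 and Junb in moDC at day 11 (0.0774 and 0.0787). The numbers were not taken as pairs, because no label says what they share. Over all genes 17 of 100 pairs of the same letter and number correlated above 0.1 (median 0.042). For the same letter and another number 6 of 215 pairs did (median -0.020). Over the 35 genes the median was 0.206, against -0.131 for the same letter and another number. Among 47 arrays, 28 correlated best with their own number over all genes and 27 over the 35 genes. This is a hint from the data and not from the design. Arrays of a number may thus not be independent of each other, which the reported p-values do not allow for. The title letter and number as a random factor gave 2 for untreated CD11b DC against moDC. Without both arrays that stood apart, CD11b DC differed in 0 genes between the days, untreated moDC and monocytes in 4 (1), and the responses at day 11 in 10. Leaving out 1 array at a time gave 4 to 9 calls in monocytes, 0 to 4 in moDC at day 5, 3 to 9 in moDC at day 11, 1 to 3 in CD11b DC at day 5, 0 to 1 between the days in moDC, 0 to 4 in CD11b DC and 1 to 6 in Langerhans cells. It gave 1 to 3 for untreated moDC against monocytes, 0 to 1 for untreated CD11b DC against moDC, and 6 to 11 and 3 to 9 for the responses at day 5 and day 11. Signal over background limits the precision of low genes such as Rhob and Egr3.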

Other observations

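Sample titles carry a number that several populations share within a treatment. At day 5 the array numbered 4 had the highest and the array numbered 2 the lowest mean of the 7 heat shock genes in 5 of 5 populations. The array numbered 4 was also the highest in all 5 for Nr4a1, Nr4a2, Nr4a3, Ier3, Hspa1a and Hsp90aa1. At day 11 the array numbered 1 was the lowest in all 5 populations for 9 genes, namely Fosb, Maff, Egr1, Nr4a1, Nr4a2, Klf2, Klf6, Dusp2 and Ier3, and had the lowest mean of the 28 early genes in 4 of 5. What the number stands for is not given in the sources used here.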
